A study of Mus musculus with 6 samples.

Results

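The mitochondrial ribosomal protein genes were taken as every row of the deposited expression table whose symbol starts with Mrpl or Mrps followed by a number. The rule found 78 of 25124 genes, and all 78 were expressed above the limit for testing, 1 TPM or more in at least 3 samples (TPM is a number of reads corrected for transcript length and library depth; the deposited columns total 551257 to 572349 per library, short of the full scale of the unit, so printed values lie below standard TPM). Poly(A) RNA had been sequenced from RAW264.7, a mouse macrophage line, in 6 samples. All cells carried a plasmid encoding Cas9 but no guide sequence, and served as the control line for an E4BP4 knockout. They were kept in medium with 25 mM glucose and used at fewer than 15 passages. The 3 M1 samples had received lipopolysaccharide (LPS, a component of bacterial outer membranes) at 100 ng/ml and interferon-γ at 50 ng/ml, and the 3 M0 samples neither agent. How long the agents were present is not given here, and RAW264.7 is a single transformed line, so the samples do not sample animals.

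Mitochondrial ribosomes translate the few proteins that mitochondrial DNA encodes, all of them parts of the respiratory chain and ATP synthase. Their RNAs come from mitochondrial DNA, but every protein of the large subunit (Mrpl genes) and of the small subunit (Mrps genes) is made from a nuclear gene and imported. Some of these proteins have counterparts in bacterial ribosomes and others exist only in mitochondria. A few names are historical: Mrps30 and Mrps18a belong to the large subunit, and Mrps36 is now regarded as a component of the α-ketoglutarate dehydrogenase complex, so it was counted in neither subunit here.

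The libraries held 15615639 to 20283180 reads in genes, and each of the 78 genes was covered by 54 to 2906 reads per library. All 8 macrophage markers examined were at 1 TPM or more in every library, while no T cell, B cell, fibroblast or epithelial marker reached 1 TPM in any library. The macrophage markers summed to 2854 to 3091 TPM in M0 and 2594 to 2639 TPM in M1, but single markers moved both ways. Adgre1 (2.15 to 3.08 TPM in M0, 66.3 to 68.3 TPM in M1), Fcgr1 and Spi1 were higher in M1. Lyz2 (1017 to 1159 TPM in M0, 654 to 699 TPM in M1), Cd68, Csf1r and Itgam were lower, and the groups of Cd14 overlapped. Of 3 neutrophil markers, Mpo was at 0 throughout, Ly6g stayed at or below 0.195 TPM, and S100a8 had 4.43 to 5.85 TPM in M0 and 3.04 to 3.90 TPM in M1; the part of such RNA in the results was not tested. The 5 genes of the M1 state summed to 42.9 to 47.0 TPM in M0 and 4930 to 5006 TPM in M1. Nothing in the labels says that replicates were separate cultures, so the spread that the p-values rest on may be a technical one. In such bulk samples, fewer cells with a transcript and less of it per cell cannot be told apart.

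The mitoribosomal genes moved by small amounts and in both directions. On the TPM scale, 10 of the 78 were higher in M1, 47 were lower and 21 were not called (limma-trend on log2(TPM + 1), threshold 0.05 after Benjamini-Hochberg adjustment over 11297 genes). Among all tested genes 18.7% were higher and 61.5% were lower, so the share of mitoribosomal genes that fell, 60.3%, was close to the background. Their median log2 change was -0.18, against -0.31 for all tested genes. Only Mrpl52 rose and only Mrps26 fell by at least 2-fold as fitted. All 3 M1 samples lay above all 3 M0 samples for 10 genes (19.6% of all tested genes did so), all 3 lay below for 48 (61.8%), and the groups overlapped for 20. The calls and the overlap differed for 3 genes: Mrps15 was called lower with overlapping groups, and Mrps33 and Mrpl17 were not called although their groups were apart.

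The direction of these small changes depended on the scale. TPM placed most genes lower in M1, so a second scale was used in which TPM was divided by median-of-ratios factors (1.11 to 1.15 in M0, 0.873 to 0.896 in M1). This moved the median of all tested genes up by 0.33. After rescaling, 40 mitoribosomal genes were higher and 18 lower, against 38.1% higher and 35.4% lower among all tested genes, and their median was 0.16, against 0.02 for all. The genes called the same way on both scales numbered 10 higher (18.7% of all tested genes) and 18 lower (35.4%). Rescaling moves every gene up in M1, so it cannot reverse an increase on TPM. Of all tested genes, 2111 were higher on TPM and 2111 on both scales. For a gene that rose, a call on both scales thus adds nothing to its call on TPM. Another 19 fell on the TPM scale and were not called after rescaling, 20 were not called on TPM and were higher after rescaling, and 10 turned from lower to higher (4.51% of all tested genes). Mrpl23 was called on neither scale. The authors' deposited table, which holds 77 of the 78, calls 37 higher and 14 lower, and its sign equals that of the rescaled values for all 77. For 64 of these 77 genes its row is for the same transcript as the one used here. The table rests on the same 6 samples, so its calls are no independent check. Of all its 24421 genes it calls 17.6% higher and 15.9% lower. That total is larger than the 11297 genes tested here, and all 78 mitoribosomal genes passed the limit for testing. The shares of the authors' table are thus not a like background for the mitoribosomal genes. Below, a gene that rose or fell did so on TPM, and genes called on both scales are named as such.

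**Figure D1:**
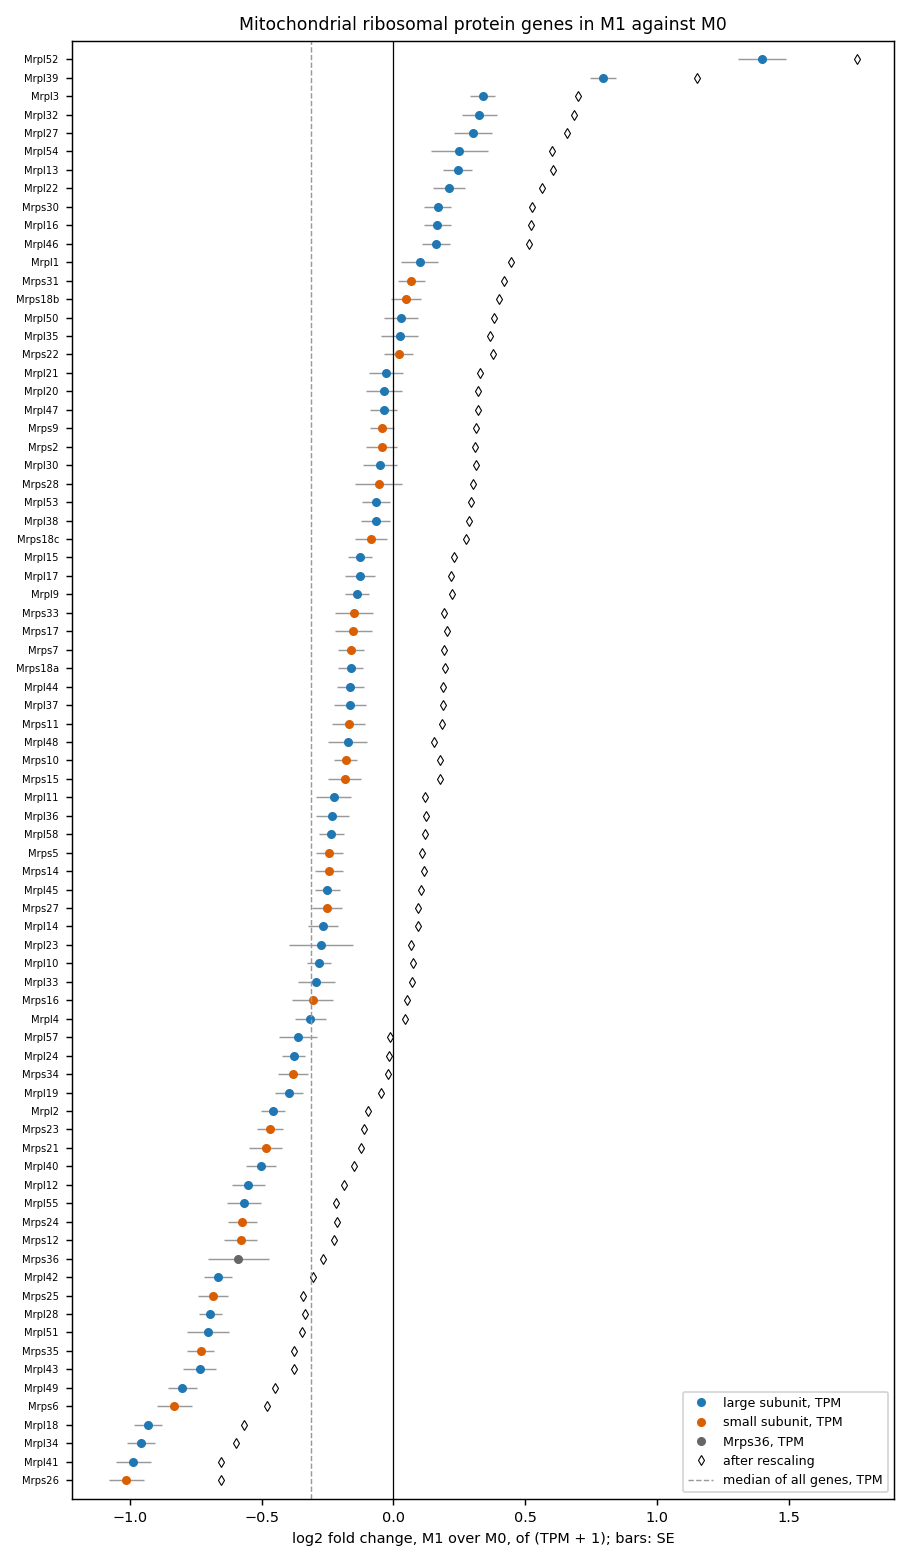
Fitted log2 change of TPM + 1 in M1 over M0 (horizontal axis) for the 78 mitoribosomal genes (vertical axis, ordered by change), with bars for the standard error, open diamonds for the rescaled changes and a dashed line for the median of all tested genes on TPM. On TPM the lower and upper quartiles are -0.46 and -0.04, while Mrpl52 and Mrpl39 stand at the upper end and Mrps26 and Mrpl41 at the lower.

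Mrpl52, a mitochondrion-specific protein of the large subunit, showed the largest change of the 78. It had 69.5, 54.9 and 60.8 TPM in M0 replicates 1 to 3 and 175, 169 and 148 TPM in M1 replicates 1 to 3. The lowest M1 sample was far above the highest M0 sample. The ratio of means was 2.66, and the log2 change was 1.40 (SE 0.09, limma adjusted p = 6.1e-07), or 1.76 after rescaling. Mrpl39, also specific to mitochondria, had 36.4, 37.4 and 36.1 TPM in M0 and 66.9, 65.2 and 61.1 TPM in M1, a ratio of 1.76 with no overlap (log2 change 0.80, SE 0.05, limma adjusted p = 4.4e-08; 1.15 after rescaling). Both thus rose against other mitoribosomal genes: together they made up 2.21% to 2.41% of the summed mitoribosomal TPM in the M0 libraries and 5.88% to 6.36% in the M1 libraries.

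The sequences just upstream of these 2 genes are shown because they rose most. They are RefSeq sequence of build GRCm38.p6, on the strand of the gene, and capitals mark matches to the motifs described further below. The Mrpl52 window is chr14:54426659-54426908, plus strand, and ends next to the transcript start in the deposited table (chromosome 14, 54426909 to 54429750, NM_026851). The Mrpl39 window is chr16:84735303-84735494, minus strand, next to NM_017404 (chromosome 16, 84717580 to 84735302).
Mrpl52: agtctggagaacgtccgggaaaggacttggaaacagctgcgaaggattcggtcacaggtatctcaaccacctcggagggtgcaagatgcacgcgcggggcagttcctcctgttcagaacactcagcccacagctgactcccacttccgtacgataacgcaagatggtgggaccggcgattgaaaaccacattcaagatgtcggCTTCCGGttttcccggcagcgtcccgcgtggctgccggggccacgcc
Mrpl39: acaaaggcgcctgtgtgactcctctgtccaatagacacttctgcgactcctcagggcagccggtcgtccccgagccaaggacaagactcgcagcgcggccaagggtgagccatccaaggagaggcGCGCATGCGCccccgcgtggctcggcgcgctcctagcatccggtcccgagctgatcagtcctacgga
The capitals in the Mrpl52 window are a match to CCGGAAG, a core bound by ETS factors such as GABPA, read on the other strand, and its first printed base lies 47 bases from the end of the window. Those in the Mrpl39 window are overlapping matches on both strands to GCGCATGCG, a site of the transcription factor NRF1, and begin 67 bases from the end.

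The other 8 genes that rose did so by less. Mrpl3, a core protein of the large subunit with a bacterial counterpart, had 79.2, 73.4 and 72.9 TPM in M0 and 97.1, 94.1 and 94.7 TPM in M1 (log2 change 0.34, limma adjusted p = 4.3e-05). Mrpl32, which matures through cleavage by the m-AAA protease, had 54.2, 46.8 and 47.7 TPM in M0 and 66.2, 62.9 and 58.0 TPM in M1 (log2 change 0.33, limma adjusted p = 0.00083). Mrpl27, whose bacterial counterpart reaches into the peptidyl transferase centre, had 39.7, 34.7 and 39.5 TPM in M0 and 48.2, 50.6 and 42.5 TPM in M1 (log2 change 0.30, limma adjusted p = 0.0027). For each of the 3, every M1 sample was above every M0 sample.

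Mrpl13 was the most abundant of the 78 over all samples. It had 173, 156 and 159.7 TPM in M0 and 205, 191 and 184 TPM in M1 (log2 change 0.24, limma adjusted p = 0.0016). Mrpl22, whose bacterial counterpart lines the exit tunnel of the nascent protein, had 30.7, 32.8 and 31.1 TPM in M0 and 39.7, 35.3 and 35.1 TPM in M1 (log2 change 0.21, limma adjusted p = 0.0066). Neither gene's groups overlapped. The remaining 3, Mrps30, Mrpl16 and Mrpl46, rose by 0.17, 0.17 and 0.16 on the log2 scale. All 10 genes were higher in the authors' deposited table too, which rests on the same 6 samples. All 10 belong to the large subunit and make up 19.6% of its 51 genes, near the 18.7% of all tested genes. The 10 genes were also higher after rescaling, but rescaling moves every gene up in M1 and could not reverse them. On that scale 27 of 51 large-subunit genes and 13 of 26 small-subunit genes were higher, so rises only in the large subunit hold for TPM alone. Mrpl54 had the sixth largest fitted increase but was not called (27.7, 25.2 and 34.2 TPM in M0, 36.0, 36.1 and 31.4 TPM in M1, limma adjusted p = 0.060). Without M0 replicate 3, its highest M0 sample, its log2 change was 0.37 and it was called (limma adjusted p = 0.0018).

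Mrps26, a mitochondrion-specific protein of the small subunit, had the largest fitted decrease. It had 117, 117 and 129 TPM in M0 and 63.5, 60.9 and 53.8 TPM in M1 (log2 change -1.01, SE 0.07, limma adjusted p = 6.5e-08), or -0.65 after rescaling. The M1 samples were near the same level and well apart from M0. Its upstream sequence is shown for comparison with the 2 genes that rose most. The window is chr2:130563507-130563756, plus strand, and ends next to the start of NM_207207 (chromosome 2, 130563757 to 130565394).
Mrps26: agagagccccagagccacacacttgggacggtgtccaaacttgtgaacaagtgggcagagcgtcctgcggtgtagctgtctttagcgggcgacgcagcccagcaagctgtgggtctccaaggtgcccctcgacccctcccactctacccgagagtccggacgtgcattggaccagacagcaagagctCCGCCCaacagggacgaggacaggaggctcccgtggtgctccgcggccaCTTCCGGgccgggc
The capitals mark a GC box (GGGCGG, bound by SP1) and an ETS core, both read on the other strand, with first printed bases 63 and 14 bases from the end. An ETS core thus lies within the last 50 bases of the window both in Mrpl52, which rose, and in Mrps26, which fell.

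Mrpl41, specific to mitochondria, had 15.0, 13.8 and 14.9 TPM in M0 and 6.97, 7.26 and 6.38 TPM in M1 (log2 change -0.99, SE 0.07, limma adjusted p = 1.1e-07). Mrpl34, a small protein with a bacterial counterpart, had 82.1, 76.4 and 86.2 TPM in M0 and 41.8, 40.1 and 42.6 TPM in M1 (log2 change -0.96, SE 0.05, limma adjusted p = 1.9e-08). Mrpl18, a protein of the central protuberance of the large subunit, had 163, 156 and 166 TPM in M0 and 87.1, 87.8 and 78.2 TPM in M1 (log2 change -0.93, SE 0.05, limma adjusted p = 2.2e-08). In none of the 3 did the groups come near each other. Mrpl18 was the third most abundant of the 78 over all samples, so the decreases were not limited to weakly expressed genes.

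Of the other genes among the 8 largest decreases, Mrps6, the homologue of bacterial S6, had 32.2, 33.0 and 34.7 TPM in M0 and 20.0, 16.7 and 18.2 TPM in M1 (log2 change -0.83). Mrpl49, Mrpl43 and Mrps35, all specific to mitochondria, fell by 0.80, 0.73 and 0.73 on the log2 scale. The limma adjusted p-values of these 4 were at most 6.4e-07, and all 4 were lower after rescaling. All 4 were also lower in the authors' deposited table, which rests on the same 6 samples and is no independent check. For 2 of them the deposited transcript overlaps a neighbour by more than 50% of its span, and no source used here says whether reads were counted by strand. Mrps6 overlaps Slc5a3 on the same strand over 54.1% of its span, and Slc5a3 itself had 2.24 to 2.60 TPM in M0 and 0.528 to 0.719 TPM in M1. Mrpl43 overlaps Twnk on the opposite strand over 54.6% of its span, and Twnk had 22.7 to 24.4 TPM in M0 and 13.7 to 14.5 TPM in M1. The part of shared reads in the values of these 2 genes was not tested.

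The other 10 genes lower on both scales were Mrpl51, Mrpl28, Mrps25, Mrpl42, Mrps12, Mrps24, Mrpl55, Mrpl12, Mrpl40 and Mrps23. Mrpl12, the protein of the ribosomal stalk that recruits translation factors, had 185, 167 and 168 TPM in M0 and 121, 125 and 108 TPM in M1 (log2 change -0.55, limma adjusted p = 7.7e-06). It was the most abundant of the 78 in M0, and Mrpl13 in M1. After rescaling the change of Mrpl12 was -0.19 (adjusted p = 0.040), close to the threshold. Of the 18 genes lower on both scales, 14 were also lower in the authors' deposited table. The exceptions were Mrps12, Mrpl55, Mrpl40 and Mrps23, of which Mrpl55 and Mrps23 stand in that table with another transcript.

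**Figure D2:**
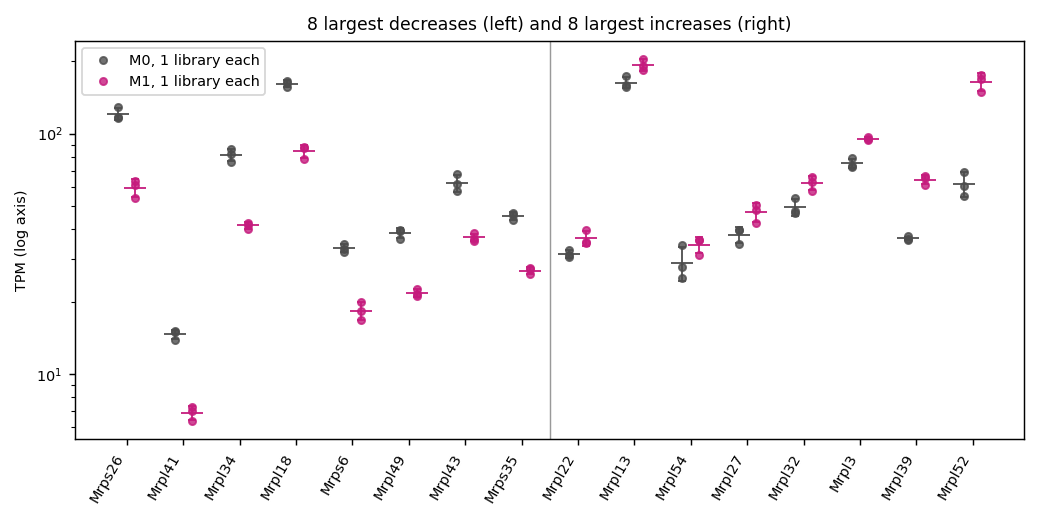
TPM in each library (vertical log axis, 1 point per sample, 3 M0 and 3 M1, with the mean and SD as bars) for the 8 genes with the largest fitted decreases on the left and the 8 with the largest fitted increases on the right. The M0 and M1 points of Mrpl54 overlap, and those of the other 15 genes are apart.

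The next most abundant genes changed less. Mrpl30 had 131, 118 and 122 TPM in M0 and 122, 128 and 109 TPM in M1, with overlapping groups (log2 change -0.05, limma adjusted p = 0.48), and its sign turned to 0.01 without M1 replicate 3 and to 0.31 after rescaling. Mrpl33, a small protein with a bacterial counterpart, had 138, 118 and 118 TPM in M0 and 100.3, 109 and 95.3 TPM in M1 (log2 change -0.29, limma adjusted p = 0.0028), and it was not called after rescaling (0.07). Across the 78 genes the order of levels was much the same in both groups: Spearman's rho between the M0 and M1 means was 0.91 (across genes, which are not independent replicates). The M0 means ran from 9.34 to 173 TPM with a median of 42.5, and 66 of the 78 lay between 15 and 100 TPM. The log2 change was nearly unrelated to the M0 mean (rho -0.16) and to transcript length (rho 0.02).

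The 3 mitochondrial homologues of bacterial S18 are alternative by place: Mrps18a sits in the large subunit, and Mrps18b and Mrps18c in the small one. Mrps18a had 72.1, 69.4 and 73.7 TPM in M0 and 62.6, 62.9 and 66.4 TPM in M1, and fell (log2 change -0.16, limma adjusted p = 0.0076). Mrps18b had 32.3, 28.8 and 29.0 TPM in M0 and 30.7, 31.9 and 30.4 TPM in M1, and Mrps18c had 82.8, 77.5 and 82.4 TPM in M0 and 83.4, 74.2 and 71.5 TPM in M1. Neither of these was called (limma adjusted p = 0.47 and 0.21), and their groups overlapped. Without M1 replicate 1, Mrps18c was called lower (log2 change -0.15, limma adjusted p = 0.031). After rescaling all 3 were called higher, by 0.20, 0.40 and 0.28. The sign thus turned for Mrps18a and Mrps18c, and Mrps18b, at 0.05 on TPM, was positive on both scales but called on only 1. Mrps36, the protein no longer counted as ribosomal, had 11.0, 8.81 and 8.69 TPM in M0 and 7.03, 5.94 and 5.02 TPM in M1 (log2 change -0.59, limma adjusted p = 0.00074), and was not called after rescaling (-0.27, adjusted p = 0.090).

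The 10 genes whose call turned from lower on TPM to higher after rescaling were Mrps18a, Mrpl44, Mrpl58, Mrps15, Mrps10, Mrps11, Mrpl37, Mrps7, Mrpl9 and Mrpl15. They include Mrpl58, a peptidyl-tRNA hydrolase built into the large subunit, and Mrpl44, which has a ribonuclease III-like fold. Mrpl44 had 29.0, 30.2 and 30.6 TPM in M0 and 26.1, 26.1 and 27.6 TPM in M1, a log2 change of -0.16 on TPM and 0.19 after rescaling. The TPM changes of the 10 lay between -0.24 for Mrpl58 and -0.13 for Mrpl15, and the rescaled ones between 0.12 for Mrpl58 and 0.23 for Mrpl15. All 10 fell on TPM by less than the median of all tested genes, -0.31. This follows from how they were chosen: rescaling moved that median up by 0.33, so only genes with small decreases can turn. The calls of Mrpl44, Mrps15, Mrps11, Mrpl37, Mrpl9 and Mrpl15 on TPM were also lost when single libraries were left out. Mrpl44 lost its call without M1 replicate 2, Mrps15 without M0 replicate 3 or M1 replicate 2, and Mrps11 without M0 replicate 1 or 2 or M1 replicate 1. Mrpl37 lost it without M0 replicate 3 or M1 replicate 1 or 2, Mrpl9 without M0 replicate 2 or 3, and Mrpl15 without M0 replicate 2 or 3 or M1 replicate 1 or 2. Mrps11 and Mrpl37 also lost it without the limit on low values (limma adjusted p = 0.053 and 0.050). With single libraries left out, the limma adjusted p-values of these genes lay between 0.050 and 0.12.

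The levels summed over each subunit moved by different amounts, and the direction of the sums depended on the scale. The summed level of all 78 was 4398, 4181 and 4339 TPM in M0 and 3801, 3800 and 3559 TPM in M1, 13.6% less on average. The large subunit went from 2906 ± 79.0 to 2608 ± 99.8 TPM and the small subunit from 1391 ± 38.7 to 1106 ± 39.2 TPM (mean ± SD, n = 3 each). After rescaling the sums were higher in M1 instead, by 11.3% for all 78 and 15.6% for the large subunit, with no overlap of groups, and by 2.42% for the small subunit, whose groups overlapped. The ratio of the large to the small subunit, which no scaling of whole libraries can change, was 2.13, 2.10 and 2.05 in M0 and 2.35, 2.37 and 2.35 in M1. The groups did not overlap (exact two-sided permutation p = 0.10, the smallest that 3 samples against 3 allow). Without Mrpl52 and Mrpl39 the ratio was 2.02 ± 0.04 in M0 and 2.15 ± 0.01 in M1 and the groups still did not overlap. By genes, 10 of 51 large-subunit genes rose and 29 fell (median -0.16), and 0 of 26 small-subunit genes rose and 17 fell (median -0.21). The 56.9% and 65.4% that fell stand on either side of the 61.5% of all tested genes, and the 19.6% of large-subunit genes that rose is near the 18.7% of all. After rescaling 27 of 51 genes were higher and 11 lower in the large subunit, and 13 of 26 were higher and 7 lower in the small one. Among all tested genes 38.1% were higher and 35.4% lower on that scale. The lack of rises in the small subunit thus holds on TPM only.

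**Figure D3:**
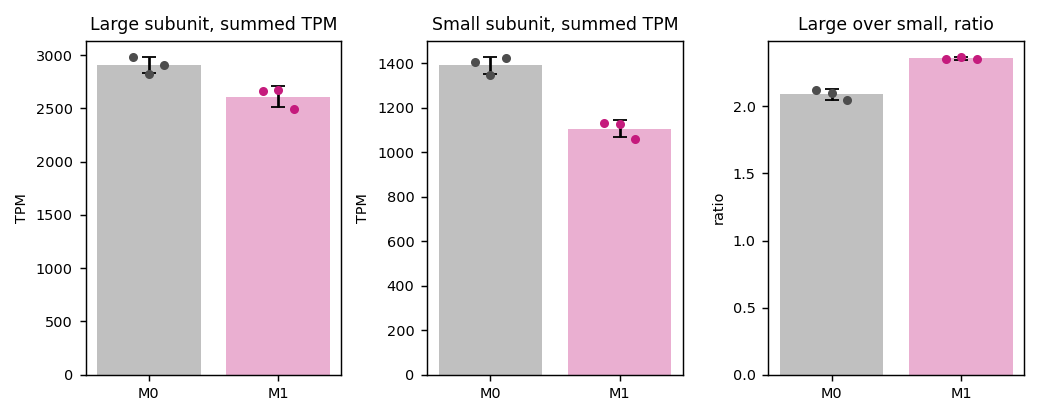
Summed TPM of the 51 large-subunit genes and of the 26 small-subunit genes, and the ratio of the sums, in M0 and M1 (bars, means from 0; error bars, SD; points, 3 samples per group). Both TPM sums are lower in M1 (after rescaling both means are higher, by 15.6% and 2.42%), and the ratio, which rescaling does not touch, is higher, with no overlap of points in any of the panels.

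Genes with bacterial counterparts and mitochondrion-specific genes were split in a similar way within the large subunit. Of 30 with bacterial counterparts 6 rose and 16 (53.3%) fell (median -0.18), and of 21 specific to mitochondria 4 rose and 13 (61.9%) fell (median -0.16). In the small subunit, 11 of 16 (68.8%) with bacterial counterparts fell (median -0.18) and 6 of 10 (60%) specific to mitochondria fell (median -0.32). These shares lie around the 61.5% of all tested genes that fell, while 18.7% of all rose. None of either small-subunit group rose on TPM, but 9 of 16 and 4 of 10 were higher after rescaling. In the large subunit 15 of 30 and 12 of 21 were higher on that scale, against 38.1% of all tested genes. Mrps18a and Mrps18b were counted here as specific to mitochondria, although they are homologues of bacterial S18 as given above. The difference between these classes was not tested.

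Some mitoribosomal genes start next to another gene that is read in the opposite direction. How common this is among all genes was not examined, so the number of such genes is not a trait of this family. A neighbour on the opposite strand with its start within 1000 bases was found for 27 of the 78, in 26 pairs, with a median of 112 bases between the starts, and 24 pairs had both genes tested. On TPM both genes fell in 11 pairs and both rose in 1, they were called opposite ways in 4, and in 8 at least 1 gene was not called. With 61.5% of all tested genes lower, pairs in which both fell are common by background alone, and this count is no result about neighbours. After rescaling, both were lower in 4, both higher in 7 and opposite in 4, most of them not the pairs that were opposite on TPM. Across the 24 pairs Pearson's r of the log2 changes was 0.47 and Spearman's rho 0.54, a description over pairs that share libraries.

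The smallest distance, 7 bases, was shared by Mrps26 with 4930473A02Rik and Mrps21 with C920021L13Rik. The neighbour of Mrps26 went from 45.8 ± 2.03 to 21.2 ± 1.12 TPM (log2 change -1.07, limma adjusted p = 1.1e-08), much like Mrps26 itself. Mrpl32 was the gene that rose with its neighbour: Psma2, a proteasome subunit, went from 191 ± 8.63 to 234 ± 6.68 TPM (log2 change 0.29, limma adjusted p = 0.00016). Mrpl30 and Mrpl18, by contrast, moved unlike their neighbours on TPM. Mitd1, 65 bases from Mrpl30, went from 29.7 ± 1.22 to 85.3 ± 3.99 TPM (log2 change 1.49, limma adjusted p = 3.5e-10), while Mrpl30 was not called. Tcp1, a subunit of the cytosolic chaperonin, starts 237 bases from Mrpl18 and had 365 ± 13.3 and 361 ± 4.74 TPM (limma adjusted p = 0.77). After rescaling Tcp1 was called higher (0.35, limma adjusted p = 5.0e-05) and Mrpl18 lower (-0.57). Mitd1 and Mrpl30 were both called higher on that scale (1.85 and 0.31). These neighbours were named after their values had been seen.

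The pair Mrpl46 and Mrps11 joins a gene of each subunit. Mrpl46 had 39.9, 35.9 and 37.8 TPM in M0 and 42.3, 43.5 and 41.4 TPM in M1 (log2 change 0.16, limma adjusted p = 0.015), and Mrps11, the homologue of bacterial S11, had 34.8, 32.3 and 30.2 TPM in M0 and 27.2, 29.8 and 28.9 TPM in M1 (log2 change -0.17, limma adjusted p = 0.025). In both genes the groups were apart, in opposite directions. The call of Mrps11 was lost when M0 replicate 1, M0 replicate 2 or M1 replicate 1 was left out, and after rescaling Mrps11 was higher by 0.18, against 0.52 for Mrpl46. The 41 bases between the starts are shown because both genes, which moved in opposite directions, start at their ends. They lie at chr7:78783090-78783130 and are written on the plus strand, towards Mrps11, with a GC box in capitals.
Mrpl46 to Mrps11: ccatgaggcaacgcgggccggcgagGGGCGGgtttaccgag
The other pairs called opposite ways on TPM were Mrpl13 with Mtbp, Mrpl27 with Eme1 and Mrps12 with Sars2, the mitochondrial seryl-tRNA synthetase. After rescaling Eme1 was called higher, as Mrpl27 was, and Mtbp was not called. Mrps12 with Sars2 stayed opposite. The other opposite pairs on that scale were Mrpl18 with Tcp1, Mrpl37 with Cyb5rl and Mrps18c with Helq. Sars2 went from 6.65 ± 0.353 to 8.0 ± 0.554 TPM (log2 change 0.23, limma adjusted p = 0.011), while Mrps12, a protein of the decoding site, fell by 0.58.

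**Figure D4:**
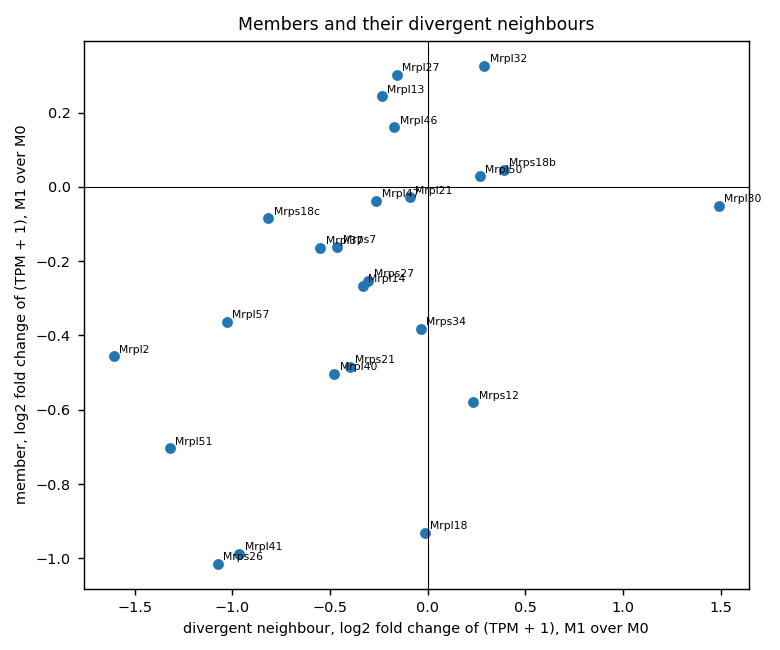
Log2 change of TPM + 1 in M1 over M0 for the 24 pairs of a mitoribosomal gene (vertical axis) and its tested neighbour read in the opposite direction (horizontal axis), 1 point per pair. Most points lie in the lower left, and Mrpl30 lies alone at the far right, next to a neighbour that rose by 1.49.

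Promoters from RefSeq (GRCm38.p6, 250 bases before to 50 after the start) were matched for 69 of the 78 genes, and 66 of these start where the deposited transcript does. For 6 motifs, promoters with a match on either strand were counted: GCGCATGCG (NRF1), CCGGAAG (the ETS core), AAGATGGCG (YY1), GGGCGG (SP1), CACGTG (the E-box of MYC) and GAAANNGAA (IRF). A promoter counted once per motif however many matches it held, and matches of different motifs were allowed to overlap. The ETS core was in 34.8% of mitoribosomal promoters, against 11.9% of all 18354 promoters and 20.6% of those of tested genes. The YY1 motif was in 11.6%, against 1.96% and 3.68%, and the NRF1 motif in 10.1%, against 2.39% and 4.19%. The GC box was in 49.3%, against 46.1% and 65.7%. The E-box (7.25%, against 7.99% and 10.5%) and the IRF motif (10.1%, against 8.11% and 7.46%) were closer to the share in all promoters. The shares depend on the length of a motif. Longer motifs had 1 more base at the 3′ end: a C for NRF1, a G for YY1 and an A for IRF. With these the mitoribosomal shares were 4.35%, 7.25% and 4.35% (3, 5 and 3 promoters). Against them stand 1.33%, 1.27% and 3.48% of all promoters and 2.39%, 2.48% and 3.54% of those of tested genes. Matches are a description of the letters in this window, not of binding.

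Of the genes called on both scales, 9 that rose and 17 that fell have a matched promoter. The ETS core was in 4 of the 9 and 7 of the 17. The NRF1 motif was in 3 of the 9 (Mrpl39, Mrpl32 and Mrpl22) and 0 of the 17, and the GC box in 2 of the 9 and 11 of the 17. The YY1 motif was in 0 and 2, the IRF motif in 1 and 1, and the E-box in none of these promoters. With the longer NRF1 motif the counts were 2 and 0. These differences were not tested.

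The mitoribosomal proteins whose symbols the rule does not take changed in the same range. Gadd45gip1, Dap3, Chchd1, Ptcd3 and Aurkaip1 all fell on TPM, by 0.13 to 0.31 on the log2 scale, and 2 of them, Ptcd3 and Aurkaip1, were higher after rescaling. Dap3, a GTP-binding protein of the small subunit, had 21.7, 23.1 and 22.5 TPM in M0 and 17.1, 18.9 and 18.7 TPM in M1. Ptcd3 lost its call without M0 replicate 2 or M1 replicate 2, and Aurkaip1 without M0 replicate 2 or 3 or M1 replicate 1 or 3, so that 3 of the 5 fell without M0 replicate 2.

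Among genes that build and serve the mitochondrial ribosome, the log2 changes of assembly factors ran from -1.63 to 1.10, against -1.01 to 1.40 for the 78. Those of translation factors and of genes that charge mitochondrial tRNAs stayed within the range of the 78. The counts below stand against 18.7% of all tested genes higher and 61.5% lower on TPM, and 38.1% and 35.4% after rescaling. Of 31 assembly factors, 2 rose and 20 (64.5%) fell (median -0.23), close to the background, against 13 and 9 after rescaling. Rbfa, which acts in the maturation of the small subunit, had 46.7, 43.0 and 50.9 TPM in M0 and 14.2, 15.5 and 13.6 TPM in M1 (log2 change -1.63, limma adjusted p = 2.0e-09). Ddx28, a helicase in the assembly of the large subunit, had 27.3, 26.2 and 25.5 TPM in M0 and 12.8, 12.6 and 12.5 TPM in M1 (log2 change -1.0, limma adjusted p = 1.2e-08). In both genes the groups were far apart, and the decrease of Rbfa was larger than that of any of the 78 ribosomal protein genes. The 2 that rose were Pnpt1 (43.7 ± 1.18 to 94.8 ± 4.08 TPM) and Mterf3 (17.8 ± 1.23 to 22.2 ± 0.144 TPM). Pnpt1 is an exoribonuclease of mitochondrial RNA and is also known as an interferon-induced gene, so it is an assembly factor only in a wide sense.

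No translation factor rose, and 12 of 14 (85.7%, against 61.5% of all tested genes) fell (median -0.47), against 2 higher and 6 lower after rescaling. Mtfmt, which formylates the initiator tRNA, fell from 29.3 ± 0.39 to 18.2 ± 0.535 TPM, and Tufm, the elongation factor that delivers tRNAs, fell from 37.4 ± 1.17 to 23.7 ± 1.23 TPM. Of 22 genes that charge mitochondrial tRNAs, the aminoacyl-tRNA synthetases with the amidotransferase subunits Gatb, Gatc and Qrsl1, 4 rose and 15 (68.2%) fell (median -0.30), against 6 and 9 after rescaling. Cars2 fell from 15.5 ± 1.06 to 8.03 ± 0.885 TPM. Among the 4 that rose was Kars, from 87.2 ± 2.36 to 123 ± 2.32 TPM, which also encodes the cytosolic lysyl-tRNA synthetase, and Wars2, from 2.11 ± 0.26 to 3.08 ± 0.647 TPM. All genes named here were called on both scales.

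Of 26 genes of mitochondrial DNA maintenance (Polg, Polg2, Twnk, Mgme1 and Ssbp1) and of RNA synthesis and processing, 2 rose and 16 (61.5%) fell (median -0.24), against 8 and 8 after rescaling. Mto1, which modifies mitochondrial tRNAs, fell from 23.2 ± 0.675 to 12.2 ± 0.399 TPM, and Twnk, the replicative helicase, from 23.7 ± 0.918 to 14.0 ± 0.40 TPM, with the overlap with Mrpl43 given above. Tefm, a transcription elongation factor, rose from 13.7 ± 0.929 to 23.3 ± 0.586 TPM. Slirp, an RNA-binding partner of Lrpprc, rose from 143 ± 16.6 to 169 ± 15.7 TPM, but lost its call when any of 4 libraries, M0 replicate 2 or 3 or M1 replicate 1 or 2, was left out or the limit on low values was dropped, which leaves 1 gene of the list higher. Of 26 import genes, 2 rose and 18 (69.2%) fell (median -0.23), against 13 and 1 after rescaling. Tomm40, the channel of the outer membrane, fell from 101 ± 2.49 to 77.3 ± 0.911 TPM. Tomm6, a small subunit of the same complex, fell from 87.0 ± 4.17 to 63.4 ± 2.59 TPM. Both calls were lost after rescaling. Timm10, a chaperone, rose from 23.5 ± 1.97 to 28.8 ± 0.287 TPM, and Pmpcb, a subunit of the presequence protease, rose from 49.3 ± 1.46 to 54.6 ± 1.15 TPM, on both scales.

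Subunits of the respiratory chain with ATP synthase and of the cytosolic ribosome had a narrower range of changes than those of the mitochondrial ribosome. Of 78 tested nuclear-encoded subunits of the respiratory chain and ATP synthase, 0 rose and 62 (79.5%) fell, with a median log2 change of -0.26 and quartiles of -0.35 and -0.19. Sdhd and Sdhc encode the membrane anchors of complex II. Sdhd fell from 196 ± 3.54 to 129.9 ± 7.70 TPM and Sdhc fell from 174 ± 2.91 to 129.9 ± 1.02 TPM. After rescaling 21 were higher and 1, Sdhd, was lower. Of 77 tested cytosolic ribosomal protein genes, 1 rose and 11 (14.3%) fell, with a median of -0.04 and quartiles of -0.09 and 0.00, and 73 were higher after rescaling. Rps20 rose from 144 ± 8.63 to 171 ± 12.5 TPM, Rps27l fell from 432 ± 13.0 to 346 ± 25.3 TPM and Rpl14 fell from 710.0 ± 25.8 to 606 ± 12.6 TPM, with the sign of the last 2 turned after rescaling. The range over all the genes of a list was -0.32 to 0.25 for the cytosolic ribosome, -0.62 to 0.02 for the respiratory chain and -1.01 to 1.40 for the mitochondrial ribosome. Without M0 replicate 1 or M1 replicate 3 the cytosolic genes that rose numbered 9 and 5, and without M0 replicate 3 or M1 replicate 3 those that fell numbered 5 and 7. The difference in spread was not tested.

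**Figure D5:**
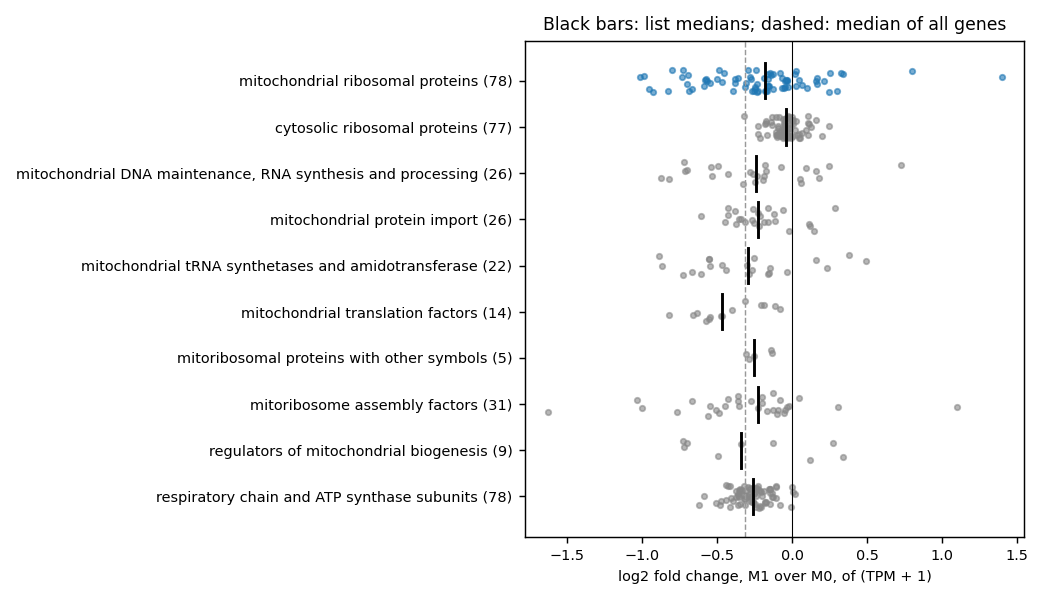
Log2 change of TPM + 1 in M1 over M0 (horizontal axis) for each tested gene of the mitoribosomal genes and the related lists (vertical axis, number of genes in brackets), with black bars for list medians and a dashed line for the median of all tested genes, -0.31. The points of the cytosolic ribosomal proteins lie close to their median of -0.04, while those of the mitochondrial ribosome and of its assembly factors are spread on both sides.

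Among 9 tested regulators known to act on nuclear genes for mitochondrial proteins, 2 rose and 5 (55.6%) fell (median -0.34). Esrra, an orphan nuclear receptor, rose from 34.1 ± 3.23 to 43.3 ± 1.89 TPM and Gabpa, the ETS factor named with the motifs above, from 19.2 ± 0.589 to 23.3 ± 1.75 TPM. Yy1 fell from 40.1 ± 1.85 to 24.3 ± 1.67 TPM and the coactivator Ppargc1b from 2.65 ± 0.21 to 1.20 ± 0.0669 TPM. All 4 were called on both scales. Ppargc1a, the better known coactivator of this family, was at most 0.024 TPM in any library and was not tested.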

How the data were processed

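Per the file headers, the authors deposited TPM for 25124 genes in each sample. A second deposited table holds, per the file headers, log2 values per sample and the comparison of M1 with M0 by the authors: a log2 fold change, its p-value and the adjusted p-value. Tools listed in the submitters' processing notes are HOMER 4.11.1, STAR 2.7.5a, bcl2fastq and DESeq2, on mm10, and the step each was used for is not stated there. How strand and multiply mapped reads were handled is not given here. TPM times transcript length was a whole multiple of 1 value per library, within 0.1 read, for 99.8% to 99.99% of values above 0, which gave the reads per library. Those numbers cover counting error only.

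TPM was tested with limma 3.58.1 (R 4.3.3, trend and robust empirical Bayes) on log2(TPM + 1) for 11297 genes (3 or more samples at 1 TPM or above), with all 6 samples and group as the only term, with Benjamini-Hochberg adjustment over all of them. Since the values are TPM, no count model was fitted as the main test. The fold change on log2(TPM + 1) understates that of low genes. Folds called ratios are ratios of mean TPM. The procedure was tested on simulated data. No count, median or share given for a list is a test of that list.

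The members and lists were chosen with earlier results of these data known. Named members are the 8 largest fitted changes in each direction, the 5 most abundant, the S18 homologues, Mrps36, Mrpl12, Mrpl44 and Mrps6, those below the limit for testing (none), those whose call turns with the scale, and those overlapping another gene over more than 50% of their span. From each related list up to 2 called genes per direction with the smallest p were named, with all 5 mitoribosomal proteins under other symbols. A gene that this rule takes is not reported here. Slc5a3, Sars2, Ppargc1a, genes given only by name and the neighbours of Mrps26, Mrpl18, Mrpl30 and Mrpl32 were named after their values had been seen. Subunit and origin were assigned by hand from general knowledge. The alternatives were rescaling by median-of-ratios factors, a pseudocount of 0.1 TPM, no limit on low values, limma-voom on the recovered reads, the replicate number as a block, leaving out each library, the authors' deposited table and, added after seeing the data, all of these on both scales together. The NRF1, YY1 and IRF motifs were first searched 1 base longer, and the shorter forms were taken after those shares had been seen, so both are given.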

Additional observations from a re-analysis of the deposited data

How the results depend on the processing

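Rescaling and the authors' deposited table changed the counts most. After rescaling, 4305 genes were higher and 4002 lower of all tested, 40 and 18 of the mitoribosomal genes and 142 and 38 of the related lists, against 2111 and 6944, 10 and 47, and 13 and 164 on TPM, and the median of the mitoribosomal genes turned to 0.16. The authors' deposited table gives 4290 and 3881, 37 and 14, and 136 and 30, and a median of 0.18. The pseudocount, the limit on low values and limma-voom on recovered reads kept every one of these counts within 1.5 times. Without the limit on low values, Mrps11, Mrpl37, Slirp and Aurkaip1 lost their calls (limma adjusted p = 0.053, 0.050, 0.068 and 0.053), the genes of DNA maintenance and RNA synthesis that rose went from 2 to 1, and those of the respiratory chain and ATP synthase from 0 to 1.

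Named genes whose sign turned, with the value after rescaling and then that of the authors' deposited table, were Mrpl33 (0.069 and 0.066), Mrpl30 (0.31 and 0.32), Mrps18a (0.20 and 0.20), Mrps18c (0.28 and 0.28), Mrpl44 (0.19 and 0.19), Mrps15 (0.18 and 0.18), Mrps10 (0.18 and 0.18), Mrps11 (0.18 and 0.18), Mrpl37 (0.19 and 0.19), Mrps7 (0.19 and 0.21), Mrpl9 (0.22 and 0.23), Mrpl15 (0.23 and 0.19), Rps27l (0.046 and 0.037), Rpl14 (0.14 and 0.14), Gadd45gip1 (0.049 and 0.048), Dap3 (0.062 and 0.066), Chchd1 (0.11 and 0.11), Ptcd3 (0.22 and 0.22) and Aurkaip1 (0.22 and 0.23). Mrpl58 turned to 0.12 after rescaling. That all genes move up together after rescaling follows from how it is built. The cause of the differences from the authors' table was not tested.

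Leaving out each library in turn gave 1990 to 2076 higher and 6606 to 6997 lower genes, 8 to 11 and 42 to 47 mitoribosomal genes (8 to 11 and 15 to 18 on both scales), 11 to 20 and 149 to 163 genes of the related lists, and a median of -0.21 to -0.19. The 20 came without M0 replicate 1. The log2 change of Mrpl30 ranged from -0.10 to 0.014, the latter without M1 replicate 3.

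With the replicate number as a block, 2143 genes were higher and 7016 lower, 10 and 48 of them mitoribosomal (10 and 18 on both scales) and 16 and 172 in the related lists, with a median of -0.18, and 3 cytosolic ribosomal protein genes rose in place of 1. The labels do not say whether the numbers pair the samples. Deviations of same-numbered samples correlated at 0.07, -0.08 and 0.04, and not every sample correlated best with its own number. With 3 samples a group, these correlations cannot decide whether samples were paired.

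The effect of depth was not tested. Mrpl23 (131 to 194 reads per library) and Mrps36 (54 to 122) had the largest standard errors of the 78, 0.12 and 0.11. With 3 samples a group, small changes near the threshold, such as those of Mrps11 or Mrpl37, rest on single libraries.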
